A study of Mus musculus with 8 samples.

Results

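B lymphocytes of the mouse kidney were examined by single-cell RNA sequencing of the whole organ. They were taken as every cell that the authors placed in the class B_Lymphocyte, and numbered 419 of the 77393 cells in the study. The study held 2 samples of obstructed kidney, labelled UUO for unilateral ureteric obstruction, and 6 Control samples. Obstruction is made by tying the left ureter, so that urine backs up into the kidney. All were from C57BL/6 mice aged 7 weeks, and UUO kidneys were collected 7 days after ligation. The titles and the disease label divide UUO from Control. The labels repeat the ligation text under every sample and do not describe a sham operation or other handling of the Control mice. No label says that the samples came from separate animals, so each p-value below is measured against a spread between libraries that may be only technical.

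B lymphocytes are the cells of the adaptive immune system that carry immunoglobulin as their antigen receptor. They present antigen to helper T cells and can mature into plasma cells that secrete antibody. Cd79a encodes a signalling chain of the B cell receptor and Ms4a1 encodes the surface protein CD20, and both mark the lineage. The tables used here give the class, the sample, the number of transcript molecules (UMIs), the number of genes detected, the mitochondrial percentage and, for 25200 cells, the place in a UMAP embedding. They hold no values of single genes, so the class name was not checked against Cd79a or Ms4a1, and plasma cells could not be looked for because no class bears that name.

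UUO samples 1 and 2 held 68 and 153 B lymphocytes. Control samples 1 to 6 held 50, 59, 1, 4, 49 and 35. Controls 3 and 4 therefore had almost none, although they held 261 and 526 immune cells in all. The numbers of cells per class in Controls 3 and 4 did not differ at the 0.05 level (chi-square p = 0.0509), while p was 4.09e-41 or lower for every other pair of Controls. They were counted as 1 pooled sample of 5 B lymphocytes, written Control 3+4, which leaves 2 UUO and 5 Control samples. The labels do not say whether Controls 3 and 4 came from 1 kidney, or whether their cell suspension was enriched or depleted for any cell type. Their low B lymphocyte shares, which set the lower end of the Control range below, are therefore given with that limit. Of the 419 B lymphocytes, 33 carried a cell barcode that also occurred in another library, and 1 barcode was shared by B lymphocytes of 2 libraries. No count over all cells stands beside these, so exchange of cells between libraries cannot be read from them. Libraries held 2263 to 18393 cells, and the median UMIs of all their cells lay between 1292 and 2944.

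As a share of all cells, B lymphocytes of both UUO samples lay within the range of the Control samples. They made up 0.370% of the cells in UUO 1 (95% exact binomial interval 0.287 to 0.468, counting error only) and 1.18% in UUO 2 (1.004 to 1.38). Control 1 held 1.39% (1.03 to 1.83) and Control 2 held 0.917% (0.699 to 1.18). Control 5 held 0.303%, Control 6 held 0.256% and Control 3+4 held 0.0805% (0.0261 to 0.188). The 2 groups overlapped, and the spread inside each was wider than the gap between them. The mean was 0.776% ± 0.575 in the 2 UUO samples and 0.589% ± 0.548 in the 5 Control samples (SD).

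Expressed as log2 odds, the difference between UUO and Control (UUO minus Control) was 0.77 (95% interval -0.90 to 2.43, limma adjusted p = 0.462 over 28 classes), and the exact permutation p was 0.524. The same fit called 14 of the 28 classes, 50%, and B lymphocytes were not among them. Its interval uses a variance shared by all classes. EdgeR with sample totals called 12 of the 28 classes. The exact permutation test called 0, with 12 at an unadjusted p under 0.05. Its smallest p with 21 splits is 0.0476, so after adjustment a class passes only if nearly all classes reach it. That 0 therefore carries no weight. The difference was 1.80 without Controls 1 and 2 and -0.073 without UUO 2, and with TMM scaling in edgeR it was -0.029, so no direction can be given. T cells, summed over 6 classes, held 12.1% and 19.4% of the cells in UUO 1 and 2, against 1.37% to 8.71% in the 5 Control samples, and their log2 odds were 2.68 higher in UUO (exact permutation p = 0.0476, the smallest that 21 splits allow). These are shares of the cells recovered in each library, and the part of tissue dissociation in them was not tested.

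**Figure D1:**
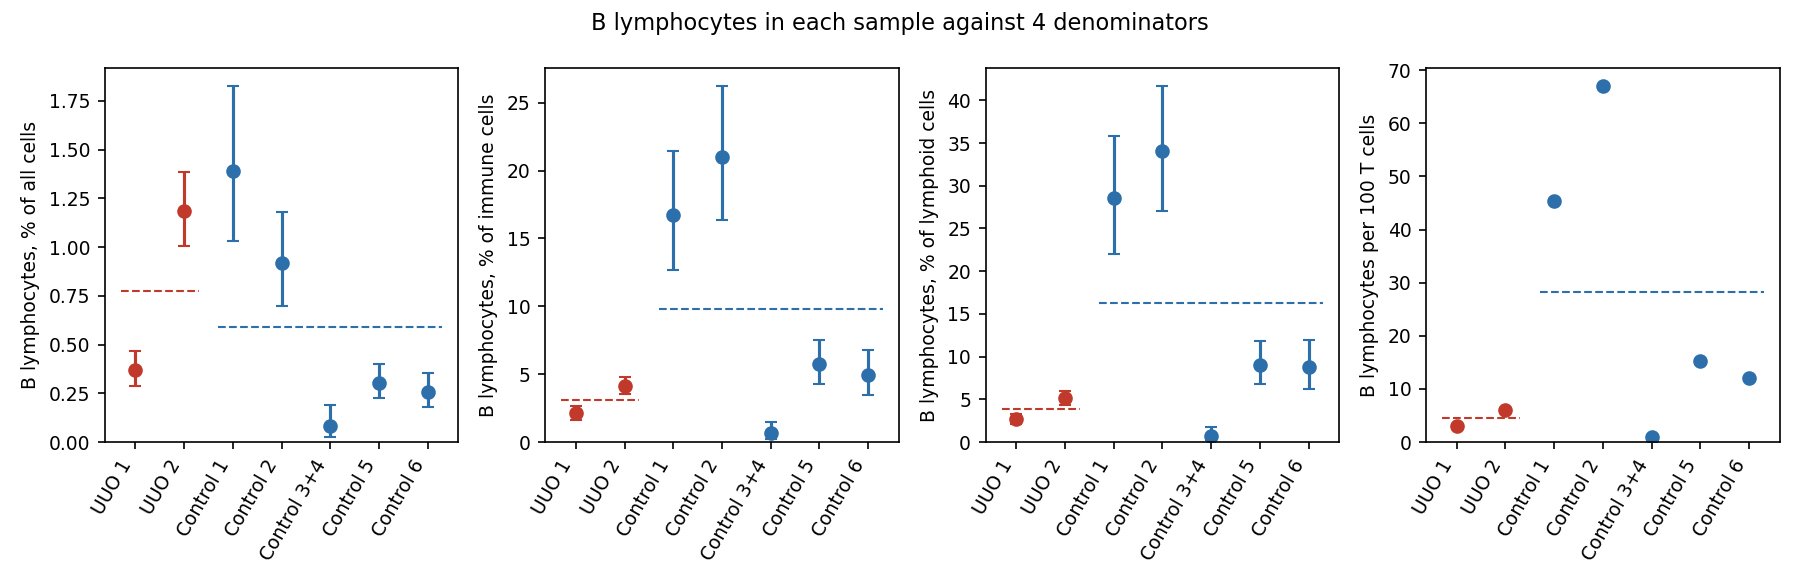
B lymphocytes of each sample as a percentage of its total, immune or lymphoid cells, and per 100 T cells (y axes), for 2 UUO samples (red) and 5 Control samples (blue, Controls 3 and 4 pooled). Points are samples, bars are exact 95% binomial intervals where a share is shown, and dashed lines are group means. Controls 1 and 2 stand above the other samples in 3 of the panels and Control 3+4 stands lowest in all 4.

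Within the immune compartment the picture was set by how much the Control samples differed. B lymphocytes were 2.12% of immune cells in UUO 1 (exact 95% interval 1.65 to 2.68) and 4.12% in UUO 2 (3.51 to 4.81). They were 16.7% (12.7 to 21.4) in Control 1, 20.996% (16.4 to 26.2) in Control 2, 5.76% in Control 5, 4.94% in Control 6 and 0.635% in Control 3+4. Both UUO samples lay below 4 of the 5 Control samples and above Control 3+4. UUO samples averaged 3.12% ± 1.41 (SD, n = 2) and Control samples 9.81% ± 8.62 (SD, n = 5). The log2 odds differed by -1.10 (interval from -3.59 to 1.39 at 95%, limma adjusted p = 0.484 over 15 immune classes). Limma called 0 of these 15 classes (0%), with 2 at an unadjusted p under 0.05. EdgeR with sample totals also called 0, with 1 unadjusted. The exact permutation test called 0, with 2 unadjusted, but could call none unless all 15 classes reached its smallest p. Without Control 3+4 the B lymphocyte difference was -1.91 (limma adjusted p = 0.0857), and without Controls 1 and 2 it was 0.11 (limma adjusted p = 0.897).

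Among lymphoid cells, which here are the B, T, NKT, NK and proliferating lymphocyte classes, B lymphocytes ranked eighth of the 9 classes in both UUO samples. They made up 2.64% of lymphoid cells in UUO 1 and 5.10% in UUO 2. In Control 2 they were the most frequent lymphoid class, at 34.1%, and in Control 1 they came next to CD4 T cells (31.4%), at 28.6%. In Control 5 and Control 6 they held 9.04% and 8.73%, and in Control 3+4 they were the rarest class, at 0.733%, where regulatory T cells led with 24.8%. The mean was 3.87% ± 1.74 in the 2 UUO samples and 16.2% ± 14.3 in the 5 Control samples (SD), and the log2 odds differed by -1.53 (interval -5.17 to 2.12, limma adjusted p = 0.419). Limma called 0 of the 9 classes (0%), with 2 at an unadjusted p under 0.05, as did edgeR with sample totals and the exact permutation test. The last could call none unless all 9 classes reached its smallest p. Without Control 3+4 the difference was -2.47 (limma adjusted p = 0.0596), and without Controls 1 and 2 it was -0.16 (limma adjusted p = 0.905).

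**Figure D2:**
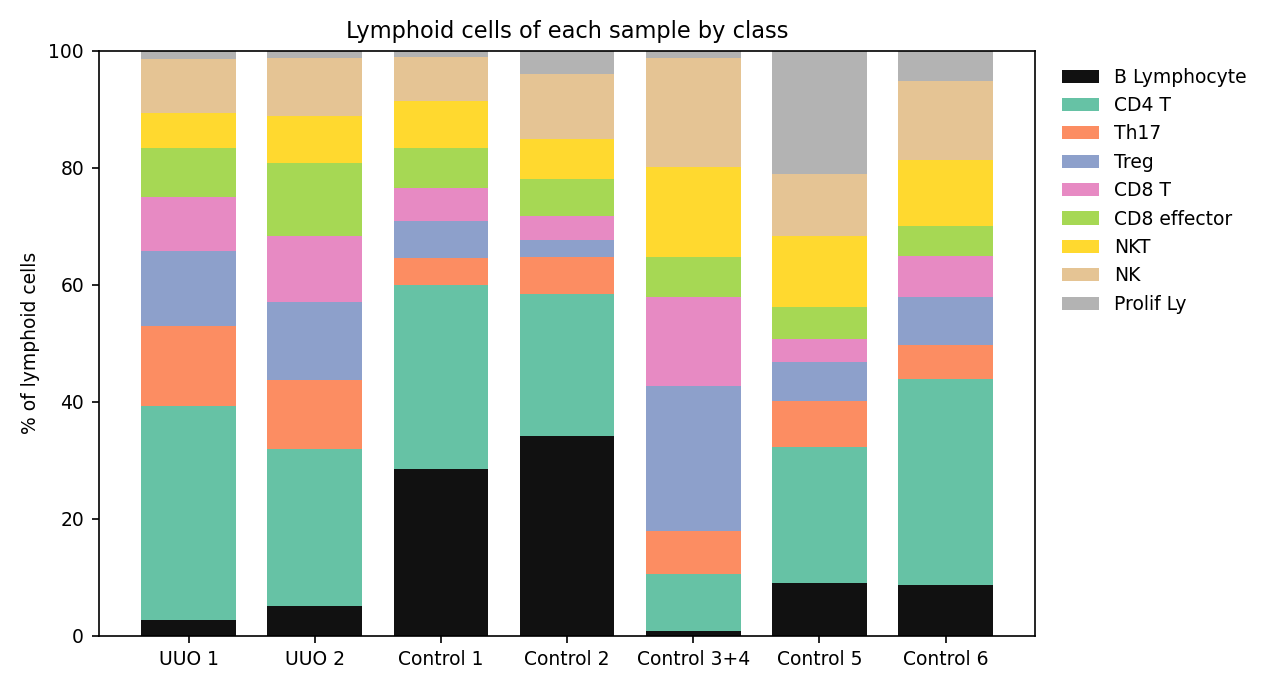
Lymphoid cells of each sample divided by class, as a percentage of that sample's lymphoid cells (y axis), for 2 UUO and 5 Control samples, with B lymphocytes in black at the foot of each bar. The black segment runs from 0.733% in Control 3+4 to 34.1% in Control 2, and is 2.64% and 5.10% in the UUO samples.

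Helper T cells and B lymphocytes act on one another, and B lymphocytes were also set directly against T cells of all kinds. T cells here are the 6 classes summed above: CD4 T, Th17, regulatory T, CD8 T, CD8 effector and NKT cells. The ratio is therefore not one to helper T cells alone. There were 3.04 B lymphocytes per 100 T cells in UUO 1 and 6.09 in UUO 2. The Control values were 45.5 in Control 1, 67.0 in Control 2, 15.3 in Control 5, 12.03 in Control 6 and 0.924 in Control 3+4. As with the immune share, both UUO samples lay below 4 of the 5 Control samples and above the fifth. The ratio averaged 4.57 ± 2.15 per 100 in UUO and 28.1 ± 27.3 in Control (SD, n = 2 and 5), and the difference in log2 ratio was -1.72 (two-sided exact permutation p = 0.429). Without Control 3+4 it was -2.67 (exact permutation p = 0.133), and without Controls 1 and 2 it was -0.41 (exact permutation p = 1).

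The ratio of B lymphocytes to each of the other 8 lymphoid classes was then compared, a family of tests chosen after the values were seen. The log2 difference was -2.30 against Th17 cells, the interleukin-17 producing helper class, -2.04 against regulatory T cells, -2.02 against CD8 effector cells, -1.97 against CD8 T cells and -1.76 against CD4 T cells. It was -0.98 against NK cells, -0.73 against NKT cells and 0.17 against proliferating lymphocytes. No ratio passed: the exact permutation p lay between 0.190 for CD4 T cells and 0.905 for proliferating lymphocytes, and its adjusted value over the 8 was at least 0.762. Per 100 CD4 T cells there were 7.21 and 19.1 B lymphocytes in the UUO samples, against a range of 7.46 to 140.5 in the Control samples.

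The transcript content of single B lymphocytes was compared next. Over all 419 cells the median was 1424 UMIs (quartiles 1072 and 1928, range 506 to 9234) and 649 genes (quartiles 537 and 803). B lymphocytes of UUO 1 and 2 had medians of 1623 and 1560 UMIs. Those of Controls 1, 2, 5 and 6 had medians of 1000, 1062, 1391 and 1163, and Control 3+4, with 5 cells and a median of 1845, was below the minimum of 10 cells and was left out of these fits. Both UUO medians lay above those of the 4 Control samples fitted and below that of Control 3+4. The mean of sample medians was 1592 ± 44.5 UMIs in UUO (SD, n = 2) and 1154 ± 172 in Control (SD, n = 4), a ratio of 1.39 (95% interval 0.897 to 2.15).

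This difference did not pass (limma adjusted p = 0.277 over 26 classes). The exact permutation p of 0.0667 is the smallest that 2 samples against 4 allow. Limma called 4 of the 26 classes, 15.4%. The exact permutation test called 0, but with so few splits it could call none after adjustment, so that 0 carries no weight. The median ratio over the 26 was 1.37, so B lymphocytes stood close to the middle of the classes, in thirteenth place from the top. Over all cells of a library the median UMIs were 2496 and 2584 in UUO 1 and 2, against 1292, 1599, 2944 and 1726 in Controls 1, 2, 5 and 6, and the part of library depth in the B lymphocyte values was not tested apart from the next comparison. Set against the CD4 T cells of the same sample, the log2 difference was 0.15 (exact permutation p = 0.333), where the raw one was 0.47. Against NK cells the UMI ratio was 0.781 and 0.869 in UUO 1 and 2. It was 0.898, 0.823, 0.741 and 0.898 in Controls 1, 2, 5 and 6, so the UUO values lay within the Control range. Genes per B lymphocyte did not pass either: medians were 709 and 699 in UUO 1 and 2, against 509, 569, 622 and 550 in Controls 1, 2, 5 and 6. The ratio was 1.25 (95% interval 0.903 to 1.74, limma adjusted p = 0.280), beside a median of 1.28 over the 26 classes. Limma called 5 of these classes (19.2%), and the exact permutation test again could call none.

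Cells of few molecules were spread unevenly over the libraries. In UUO 1 and 2, 11 of 68 (16.2%) and 4 of 153 (2.61%) B lymphocytes had under 1000 UMIs. In Control 1 these were 25 of 50 (50%), in Control 2 18 of 59 (30.5%), in Control 5 6 of 49 (12.2%) and in Control 6 9 of 35 (25.7%). At the upper end, 49 of all 419 cells had at least 3000 UMIs. They made up 8.82% and 15.7% of B lymphocytes in UUO 1 and 2, against 4%, 3.39%, 22.4% and 11.4% in Controls 1, 2, 5 and 6, so the groups overlapped.

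Genes detected rise with UMIs, so genes were also compared at equal UMIs, by fitting 1 slope of log2 genes on log2 UMIs (0.743) within all samples. At 1506 UMIs a B lymphocyte had 693 and 687 genes in UUO 1 and 2. It had 685, 735, 702, 677 and 675 genes in Controls 1, 2, 3+4, 5 and 6. The means were 690 ± 4.43 in UUO (SD, n = 2) and 695 ± 24.6 in Control (SD, n = 5), and the log2 difference of -0.0093 was far inside the spread (exact permutation p = 0.905). It was 0.013 without Control 2, the Control sample with the most genes at this depth.

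**Figure D3:**
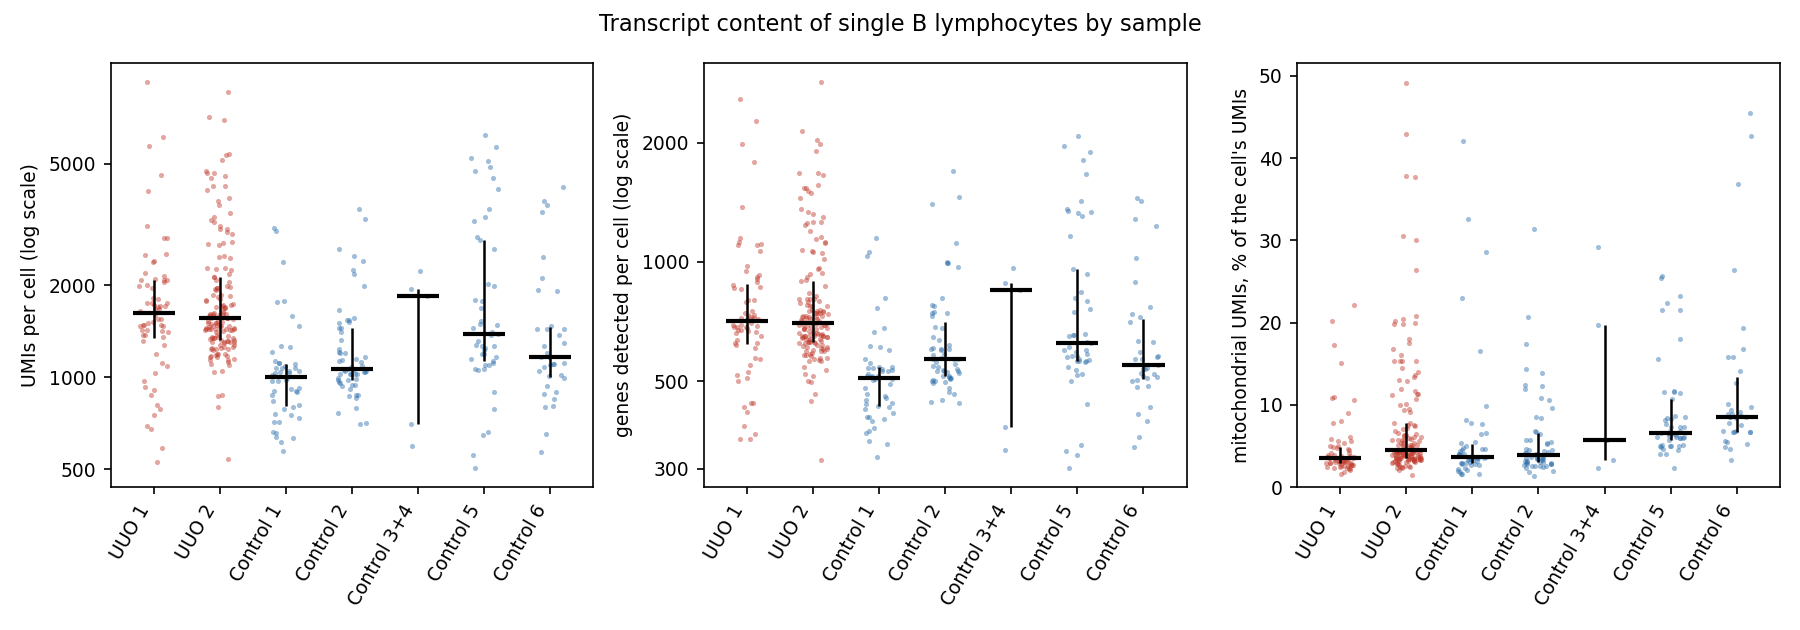
UMIs (log axis), genes detected (log axis) and mitochondrial UMIs as a percentage of the cell's UMIs for single B lymphocytes of 2 UUO (red) and 5 Control (blue) samples. Points are cells, thick lines are sample medians and vertical lines run from the lower to the upper quartile. Median UMIs are 1623 and 1560 in UUO against 1000 to 1391 in the 4 Control samples with at least 10 cells, and the mitochondrial medians of Controls 5 and 6 stand above the rest of those with at least 10 cells.

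Set beside CD4 T and NK cells of the same library, B lymphocytes had fewer transcripts and a higher mitochondrial share. These values are a description with no test, since the class was drawn from the same cells. Their median UMIs were 0.616 to 0.821 times those of CD4 T cells and 0.741 to 0.898 times those of NK cells, lower in 6 of 6 samples for each. Against CD8 T cells the ratio ran from 0.817 to 1.13, lower in 3 of 5 samples. Lymphoid classes with at least 10 cells were ranked, which were 7 in Control 1, 6 in Control 2 and 9 in the UUO samples and Controls 5 and 6. Among these, B lymphocytes had the lowest median UMIs in UUO 2 and Controls 1, 2 and 5. They ranked 2 of 9 from the lowest in Control 6 and 3 of 9 in UUO 1. Their median mitochondrial percentage was higher than that of CD4 T cells in 6 of 6 samples, by 0.671 to 3.29 percentage points, and than that of NK cells in 6 of 6, by 0.717 to 3.05. It was the highest of the ranked lymphoid classes in both UUO samples and in Controls 1 and 2, the second in Control 6 and the third in Control 5.

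Mitochondrial transcripts made up a median of 3.51% and 4.49% of UMIs in B lymphocytes of UUO 1 and 2. The medians were 3.67% in Control 1, 3.88% in Control 2, 6.58% in Control 5 and 8.53% in Control 6. The UUO values lay on either side of Controls 1 and 2 and below Controls 5 and 6. The means were 4.004% ± 0.693 in UUO (SD, n = 2) and 5.67% ± 2.33 in Control (SD, n = 4), and the difference was -1.66 percentage points (95% interval -6.67 to 3.34, limma adjusted p = 0.992). Limma called 0 of 26 classes (0%) with 0 at an unadjusted p under 0.05. So did the exact permutation test, which could call none after adjustment. Without Controls 5 and 6 the difference was 0.227 points. CD4 T cells of Controls 5 and 6 had medians of 4.63% and 5.24%, against 2.57% and 3.13% in Controls 1 and 2, so the step between these pairs of libraries was seen in them too.

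Cells at or above 10% mitochondrial UMIs were 7 of 68 B lymphocytes in UUO 1 (10.3%, exact 95% interval 4.24 to 20.1) and 34 of 153 in UUO 2 (22.2%, 15.9 to 29.6). They were 5 of 50 in Control 1 (10%), 10 of 59 in Control 2 (16.9%), 2 of 5 in Control 3+4, 13 of 49 in Control 5 (26.5%) and 11 of 35 in Control 6 (31.4%). The means were 16.3% ± 8.43 in UUO (n = 2) and 24.98% ± 11.8 in Control (n = 5), a difference of -8.72 percentage points (exact permutation p = 0.429). It was -2.76 points without UUO 1, -14.7 points without UUO 2 and -4.97 points without Control 3+4. Among the ranked lymphoid classes, B lymphocytes had the highest share of such cells in UUO 1 and Control 2 and came second in UUO 2, Control 1 and Control 6, where regulatory T cells had the highest, and were the third in Control 5. In UUO 1 and 2, regulatory T cells had 10.1% and 24.3% and NK cells 5.96% and 14.2%. CD4 T cells, the lowest of the 9 classes in both, had 1.27% and 4.36%.

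**Figure D4:**
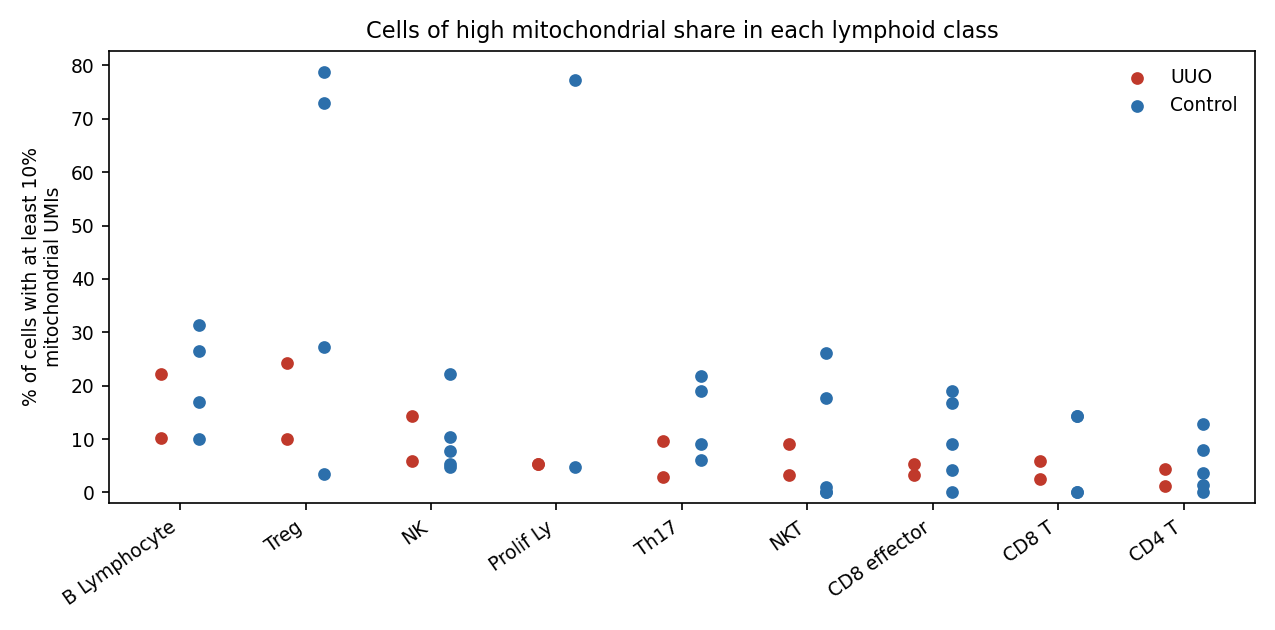
Percentage of cells with at least 10% mitochondrial UMIs (y axis) in each lymphoid class (x axis), with 1 point per sample holding at least 10 cells of the class, UUO in red to the left and Control in blue to the right. B lymphocytes lie at 10.3% and 22.2% in UUO and between 10% and 31.4% in Control.

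In the embedding, B lymphocytes formed an island of their own. Of their 10 nearest neighbours, 99.95% were other B lymphocytes, and all 10 were for 417 of the 419 cells. Cells of the proximal tubule (PT) class have no coordinates, so they could not be counted as neighbours or within reach. A single cell of another class, a connecting tubule (CNT) cell of UUO 2 with 635 UMIs, lay within the largest distance of any B lymphocyte from the class median (1.19 units). By class medians, plasmacytoid dendritic cells (pDC) were nearest, at 2.52 units, followed by conventional dendritic cells at 3.18 and macrophages at 3.58. Among lymphoid classes the nearest was that of proliferating lymphocytes, at 4.61 units. Distances in such an embedding have no unit and follow from the genes that made the classes, so they describe the map alone.

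The island had a body of 338 cells and a pair of arms, divided by lines drawn after the map was seen. The upper arm (above -7.6 on the second axis) held 49 cells and the left arm (below -1 on the first axis) held 32. Median UMIs were 2638 in the upper arm, 2374 in the left arm and 1303 in the body, and median genes were 1139 in the upper arm, 961.5 in the left arm and 622.5 in the body. The median mitochondrial share was 10.8% in the upper arm, 19.8% in the left arm and 4.24% in the body. The left arm was mixed. Its UUO cells had medians of 3665 UMIs and 4.03% mitochondrial UMIs, and its Control cells 1475 UMIs and 25.7%. These are medians over 19 pooled UUO cells, 17 of them from UUO 2, and 13 pooled Control cells, so they compare no samples. The arms together held 35 of the 49 B lymphocytes with at least 3000 UMIs. No source used here says how doublets were treated before deposit, and their part in these cells was not tested.

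Every library with at least 10 B lymphocytes contributed to both arms. The upper arm held 9 of 68 B lymphocytes in UUO 1 (13.2%) and 17 of 153 in UUO 2 (11.1%). In Controls 1, 2, 5 and 6 it held 2 of 50 (4%), 8 of 59 (13.6%), 9 of 49 (18.4%) and 4 of 35 (11.4%). It held none of the 5 cells of Control 3+4. The left arm held 2 of 68 and 17 of 153 in UUO 1 and 2, against 5 of 50, 1 of 59, 3 of 49 and 3 of 35 in Controls 1, 2, 5 and 6. The left arm also held 1 of the 5 cells of Control 3+4. Its cells fell into a low and a high mitochondrial part in both groups. Of the 19 UUO cells, 17 of them from UUO 2, 11 had 2.36% to 4.23% and 8 had 20.2% to 49.2%, while of the 13 Control cells 3 had 1.53% to 5.72% and 10 had 16.6% to 42.7%. Median UMIs were higher in the low mitochondrial part, at 4239 against 2282.5 in UUO cells and 2811 against 1453.5 in Control cells. With both arms left out, the sample medians of the body were 1514 and 1453 UMIs in UUO 1 and 2, against 973, 1047.5, 1262 and 1104 in Controls 1, 2, 5 and 6, so the UUO samples were also above these Control samples there.

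No difference in the position of the island was detected between the groups. The distance between the group means of the sample medians was 0.0517 units, and the one-sided exact permutation p was 0.762. Control 3+4 was counted as a full sample here, though it held 5 cells. Without it the distance was 0.0565 units (one-sided exact permutation p = 0.333). The spread of B lymphocytes about their own sample median was 0.186 ± 0.0365 units in UUO (SD, n = 2) and 0.197 ± 0.0340 in Control (SD, n = 5; two-sided exact permutation p = 0.667). The difference in spread was -0.0113, against 0.0145 without UUO 1 and -0.00075 without Control 3+4. Over the 5 single values tested by exact permutation (B lymphocytes per T cell, cells at or above 10% mitochondrial UMIs, genes at equal UMIs, position and spread), the Benjamini-Hochberg p was 0.905 for each.

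**Figure D5:**
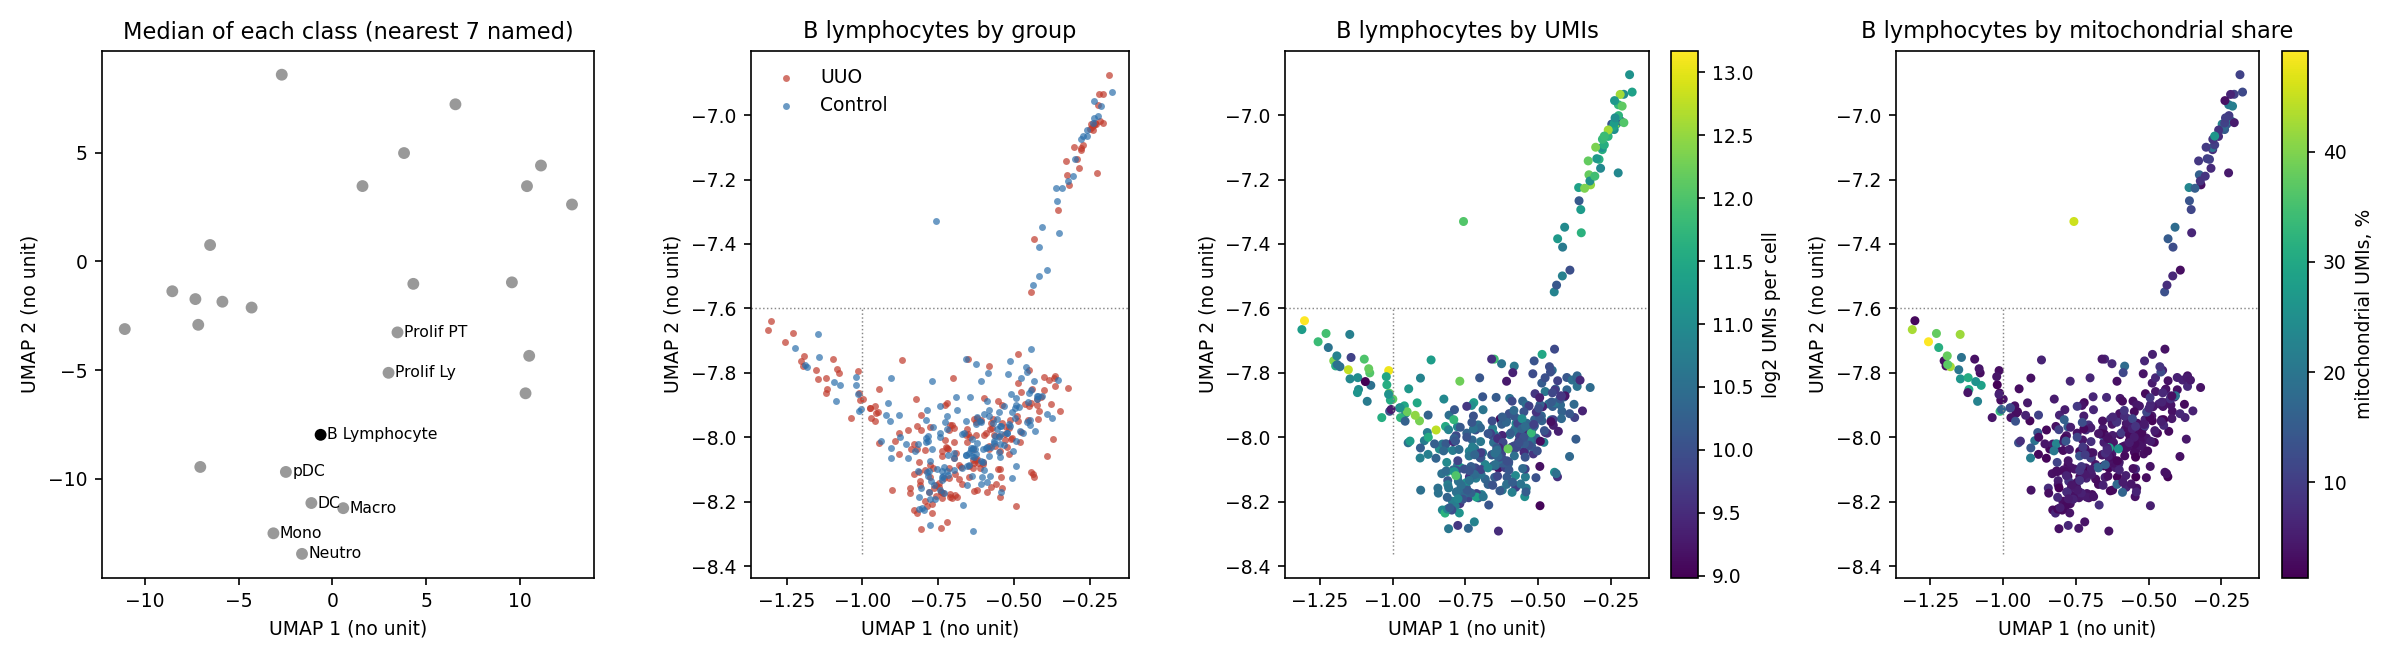
Embedding of the authors (UMAP axes, no unit). The first panel shows the median of each class with B lymphocytes in black and the 7 nearest classes named, and the others show the 419 B lymphocytes by group (UUO red, Control blue), by log2 UMIs and by mitochondrial percentage, with dotted lines dividing the body from the upper and left arms. UUO and Control cells overlie each other in body and arms, and UMIs are higher in the arms, with medians of 2638 and 2374 against 1303 in the body. Within the left arm the median over pooled cells is 3665 UMIs in UUO and 1475 in Control. The UUO cells number 19, 17 of them from UUO 2, and the Control cells 13.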

How the data were processed

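Whole-kidney single-cell 3′ libraries (10x Genomics Chromium, per the labels' protocols) of 2 UUO and 6 Control samples were used. The submitters' processing notes name Seurat 4.0.1, Cell Ranger 6.0.1 and mm10, and no source used here states the cell filters, the clustering or any doublet removal. UMIs and genes per cell are deposited whole counts, not normalized. Per the file headers, mitochondrial transcripts are given as percent of a cell's UMIs. UMAP coordinates, deposited for all classes but PT, are a score with no unit.

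Shares per sample were fitted as log2((n + 0.5)/(N - n + 0.5)) with limma 3.58.1 in R 4.3.3 over all classes of the denominator, with Benjamini-Hochberg adjustment and a threshold of 0.05. Sample medians (log2 for UMIs and genes) were fitted over the classes that reached 10 cells in 2 or more UUO and 2 or more Control samples. Single values were compared by exact permutation on group means. EdgeR 4.0.16 served as an alternative. Functions were tested on simulated data. Controls 3 and 4 were pooled. Totals of 2263 to 18393 cells per library set the precision, and binomial intervals cover counting error only. The text names B lymphocytes throughout, the other lymphoid classes in shares, and CD4 T, CD8 T and NK cells in cell measures. Regulatory T cells are also named for cells at or above 10% mitochondrial UMIs. Other classes appear as ranges, counts or neighbours in the embedding. Members, lists and tests were chosen with earlier results of these data known.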

Additional observations from a re-analysis of the deposited data

How the results depend on the processing

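Over 11 results and 200 alternatives, 180 kept the direction and the side of the 0.05 threshold, 3 passed it and 17 had the other sign. Some of the 180 could not change direction. For UMIs, genes and the mitochondrial percentage, Control 3+4 was never in the fit. Leaving it out, splitting it or asking for 20 cells therefore returned the main difference. Exact permutation alternatives also reuse that difference. With 1 sample left out, no exact permutation test could pass. All 3 that passed used the sample number as a replicate block, with log2 differences of -2.92 for the immune share (limma adjusted p = 0.000414), -3.57 for the lymphoid share (0.000261) and 0.63 for UMIs (0.0201). The block compares UUO 1 and 2 with Controls 1 and 2 alone. Over 28 classes, the deviations of same-numbered samples were correlated at -0.333 for number 1 and 0.0554 for number 2. They thus did not deviate together, and no label says that a number marks a shared animal or day. Under the block the share of all cells (-0.78), the mitochondrial percentage (0.227 points), the share at or above 10% mitochondrial UMIs (2.78 points) and the spread (0.0194) had the other sign. So did the share of all cells with TMM scaling (-0.029), and, in alternatives chosen after seeing the data, the immune share without Controls 1 and 2 (0.11) and the mitochondrial percentage without Controls 5 and 6 (0.227). Genes at equal UMIs gave 0.0300 in libraries over 10000 cells, 0.0119 without Controls 1 and 2 and 0.0930 within the middle 50% of UMIs. The spread gave 0.0234 with 8 separate samples, 0.0216 from 1000 UMIs, 0.0255 under 10% mitochondrial UMIs and 0.0509 with means. With each sample left out in turn, the differences ran from -0.073 to 1.61 for the share of all cells, from -0.0200 to 0.0131 for genes at equal UMIs and from -0.0372 to 0.0145 for the spread. The cause of these changes was not tested. The 5 B lymphocytes of Controls 3 and 4 and the 2 UUO samples limit every comparison.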

Other observations

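Across single B lymphocytes, UMIs were set against the mitochondrial percentage within each library of at least 10 such cells. The values are a description, since both come from the same cells and depth. Spearman's rho was 0.0198 in UUO 1 (68 cells) and 0.140 in UUO 2 (153 cells). It was 0.121 in Control 1 (50 cells), 0.348 in Control 2 (59 cells), 0.139 in Control 5 (49 cells) and 0.466 in Control 6 (35 cells). UMIs and genes were closely related in all 6, with rho from 0.899 to 0.964.

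Outside the proximal tubule class, which held most of the cells, B lymphocytes made up 1.79% and 3.16% of the remaining cells in UUO 1 and 2. In Controls 1 and 2 they made up 3.16% and 3.08%, in Controls 5 and 6 0.824% and 0.953%, and in Control 3+4 0.146%, so the groups overlapped on this denominator too.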
